A study of Mus musculus with 10 samples.

Results

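Cytochrome P450 genes were examined in the whole lungs of 10 mice at P30. Of the 131 genes of the deposited table whose name begins with Cyp and a digit, 100 are protein coding and 31 are not. Cyp2f2 and Cyp51 were set aside, which left 98 genes, and 31 of these had a mean of at least 0.1 FPKM (fragments per length of gene and per size of library) over the 10 samples. The other 67 lay under that limit, 29 with a value above 0 in some sample and 38 at 0 in every sample. The last members inside the limit were Cyp2t4 at 0.287 FPKM and Cyp46a1 at 0.185 FPKM, and the first genes outside were Cyp4f14 at 0.0527 FPKM and Cyp27b1 at 0.0463 FPKM.

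All 10 mice were C57BL/6J mice labelled wild type. In the IPF (increased pulmonary flow) group, 5 mice received an aortocaval fistula at P7, a join between the abdominal aorta and the vena cava that sends more blood through the lungs. The sham group, also 5 mice, had the operation at P7 without the fistula. The methods describe pups of both sexes and give no hour of collection, and the labels name no litter, operation day or batch, so p-values measure the spread between these samples.

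P450 enzymes are heme proteins that insert an oxygen atom into their substrate. Most sit in the endoplasmic reticulum and take their electrons from P450 oxidoreductase, encoded by Por, and a few sit in mitochondria and use ferredoxin. In the lung they act on inhaled chemicals, mainly in club and alveolar epithelial cells, and on fatty acids, sterols and retinoic acid in many cell types. In the liver, many of them differ between the sexes or follow the circadian clock through the PAR bZIP factors Dbp, Tef and Hlf.

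The libraries held 16250190 to 19026843 reads on genes in the IPF group and 15483046 to 17818542 in the sham group. The lung origin was visible in all of them: the 10 alveolar type 2 markers summed to between 15570 and 25095 FPKM, whereas of the 12 hepatocyte markers 7 lay under the limit of 0.1 FPKM, 4 of them at 0 in every sample, and the 5 above it summed to between 0.608 and 2.67 FPKM. In 2 respects the groups were separated completely. Xist ranged from 26.8 to 43.2 FPKM in the IPF group and from 0.0301 to 0.0767 FPKM in the sham group, and Ddx3y had no read in any IPF sample and 14.3 to 21.4 FPKM in the sham samples. The clock gene Dbp lay between 1.74 and 3.49 FPKM in the IPF group and between 23.2 and 29.3 FPKM in the sham group. Operation, sex-linked expression and clock state therefore cannot be told apart in any difference between the groups given here. Among single libraries, IPF replicate 3 had the highest airway level, with a mean log2(FPKM + 0.1) over 14 secretory markers of 5.78 against 3.96 to 4.54 in the other IPF samples and 4.46 to 5.10 in the sham samples.

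The 31 genes spanned a wide range of levels. Cyp4b1, which activates several lung toxicants, was the highest at a mean of 221 FPKM. It was followed by Cyp2b10, the classic target of the receptor CAR, at 121 FPKM and by Cyp1a1, the classic target of the aryl hydrocarbon receptor, at 70.2 FPKM. These 3 genes held 69.3% to 76.8% of the summed FPKM of all 31 in the IPF samples and 75.8% to 77.6% in the sham samples. The sum itself ran from 442 to 709 FPKM with a median of 480 in the IPF group, and from 505 to 652 FPKM with a median of 558 in the sham group, so the groups overlapped. Then came Cyp20a1 (17.5 FPKM), Cyp2d22 (14.4 FPKM), Cyp27a1 (13.9 FPKM), Cyp2s1 (12.6 FPKM), Cyp26b1 (11.6 FPKM), Cyp39a1 (10.6 FPKM) and Cyp4v3 (10.1 FPKM). In this order Cyp4b1 was above Cyp2b10 in every sample and Cyp1a1 above Cyp20a1, whereas the sample ranges of all other neighbours among these 10 overlapped. Of all members, 7 had a mean below 1 FPKM.

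**Figure D1:**
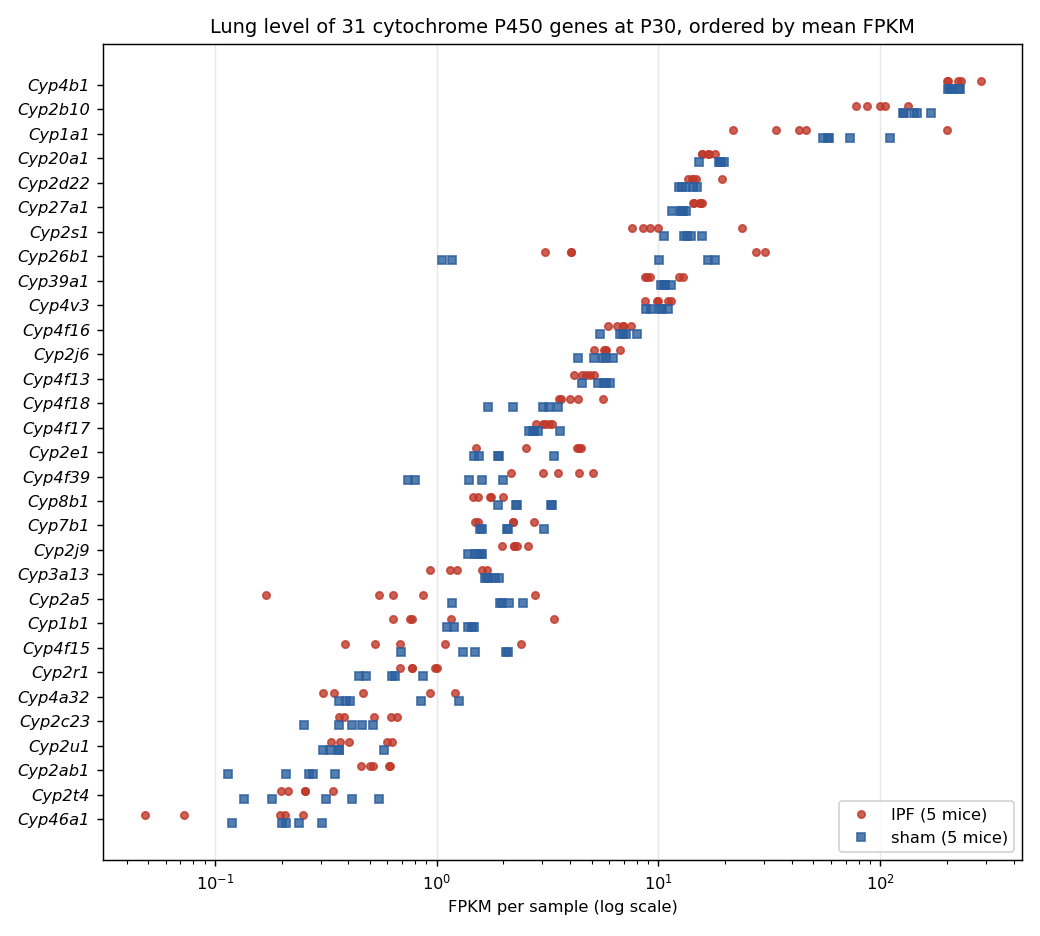
FPKM of each of the 31 cytochrome P450 genes in every sample, on a log axis, with the genes ordered by their mean over 10 samples; circles are the 5 IPF mice and squares the 5 sham mice. The levels fall from 221 FPKM for Cyp4b1 to 0.185 FPKM for Cyp46a1, and the circles and squares overlap for most genes.

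The promoters of 6 members are shown, those of the 5 genes whose level differed between the groups and that of Cyp1a1, the standard target of the aryl hydrocarbon receptor. The receptor binds DNA around the letters GCGTG, the core of the xenobiotic response element (XRE). Each window runs from 250 bases before to 50 bases after the RefSeq start on GRCm38.p6, 5′ to 3′ on the strand of the gene, and capitals mark the XRE core in either direction (GCGTG or CACGC). The windows are chr9:57697363-57697662 (plus strand) for Cyp1a1, chr7:25897408-25897707 (plus) for Cyp2b10, chr17:32452473-32452772 (plus) for Cyp4f39, chr1:74713285-74713584 (plus) for Cyp27a1, chr16:20325355-20325654 (minus) for Cyp2ab1 and chr4:96591436-96591735 (minus) for Cyp2j9. The RefSeq start of Cyp4f39 lies upstream of the gene as the deposited table places it: the window ends at 32452772 and that gene begins at 32468462. That of Cyp1a1 lies inside the gene, which runs from 57687928 to 57703824. Whether these 2 windows are the promoters of the transcripts counted was not tested.
Cyp1a1: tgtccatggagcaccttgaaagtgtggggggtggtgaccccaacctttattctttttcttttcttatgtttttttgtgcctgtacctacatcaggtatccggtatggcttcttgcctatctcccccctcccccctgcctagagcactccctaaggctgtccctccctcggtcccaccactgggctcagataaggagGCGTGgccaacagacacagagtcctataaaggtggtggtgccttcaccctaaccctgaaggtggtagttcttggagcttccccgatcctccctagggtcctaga
Cyp2b10: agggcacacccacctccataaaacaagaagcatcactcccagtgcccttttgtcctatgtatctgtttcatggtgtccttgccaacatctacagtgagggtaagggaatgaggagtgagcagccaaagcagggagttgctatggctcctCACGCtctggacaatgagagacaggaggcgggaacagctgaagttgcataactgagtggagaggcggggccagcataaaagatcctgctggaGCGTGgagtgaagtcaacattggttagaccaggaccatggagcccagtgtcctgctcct
Cyp4f39: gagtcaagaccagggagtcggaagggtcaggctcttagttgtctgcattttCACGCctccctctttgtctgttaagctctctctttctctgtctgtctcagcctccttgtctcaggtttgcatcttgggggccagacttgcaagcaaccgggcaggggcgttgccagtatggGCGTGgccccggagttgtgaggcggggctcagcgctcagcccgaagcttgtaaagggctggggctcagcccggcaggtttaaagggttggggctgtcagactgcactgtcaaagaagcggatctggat
Cyp2j9: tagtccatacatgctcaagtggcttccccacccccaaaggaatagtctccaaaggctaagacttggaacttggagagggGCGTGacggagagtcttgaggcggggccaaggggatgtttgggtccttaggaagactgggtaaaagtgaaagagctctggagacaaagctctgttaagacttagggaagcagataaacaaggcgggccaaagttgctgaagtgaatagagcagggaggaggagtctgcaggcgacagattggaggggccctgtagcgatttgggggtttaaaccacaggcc
Cyp27a1: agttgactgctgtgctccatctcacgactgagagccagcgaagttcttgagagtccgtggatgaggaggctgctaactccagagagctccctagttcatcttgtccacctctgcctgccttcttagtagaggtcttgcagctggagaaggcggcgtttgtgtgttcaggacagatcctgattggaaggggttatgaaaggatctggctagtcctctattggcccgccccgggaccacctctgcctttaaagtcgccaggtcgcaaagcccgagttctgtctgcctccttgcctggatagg
Cyp2ab1: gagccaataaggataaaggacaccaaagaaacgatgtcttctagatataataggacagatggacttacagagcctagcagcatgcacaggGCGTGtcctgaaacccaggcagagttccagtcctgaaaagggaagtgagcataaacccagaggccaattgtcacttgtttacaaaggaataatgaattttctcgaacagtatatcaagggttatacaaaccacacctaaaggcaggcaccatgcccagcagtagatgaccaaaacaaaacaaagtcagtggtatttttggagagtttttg

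RefSeq windows were found for 25 of the 31 members by symbol. The XRE core was present in 11 of the 25, against 32.4% of all 32851 windows of the table. It lay 54 bases before the start in Cyp1a1, 9 and 101 bases before it in Cyp2b10, 78 and 199 bases before it in Cyp4f39, 171 bases before it in Cyp2j9 and 160 bases before it in Cyp2ab1. The window of Cyp27a1 held none of the motifs searched. The E-box CACGTG, the letters bound by the clock activators, was found in Cyp2j6 and Cyp4v3 (7.15% of all windows). The RORE core AGGTCA was found in Cyp2a5 and Cyp2t4 (16.3% of all windows). The D-box of the PAR bZIP factors, searched as TTATGTAA or TTACGTAA, was found in 0 of the 25 windows and in 1.06% of all windows. All motifs were searched on both strands, and no matches of different motifs overlapped in the members. These matches describe letters, not binding.

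Of the 31 genes, 5 differed between IPF and sham lungs at an adjusted p under 0.05 (limma on log2(FPKM + 0.1), Benjamini-Hochberg over 20448 genes), which is 16.1% beside 5.85% of all genes tested. Higher in IPF were 4 genes (3.71% of all genes): Cyp4f39, Cyp2j9, Cyp27a1 and Cyp2ab1. Cyp2b10 alone was lower (2.14% of all genes). With an absolute log2 fold change above 1 required as well, 1 gene passed (1.14% of all genes). This was Cyp4f39, which was higher (0.68% of all genes), and 0 genes were lower (0.46% of all genes). At an unadjusted p under 0.05, 6 members were higher (11.2% of all genes) and 5 were lower (8.3% of all genes). The groups did not overlap in 5 members (7.29% of all genes). In each of these 5 the IPF samples were the higher ones (4.52% of all genes), and in 0 members the lower ones (2.77% of all genes). The median log2 fold change of the members was -0.01, with 15 positive and 16 negative, so the family as a whole had no common direction.

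**Figure D2:**
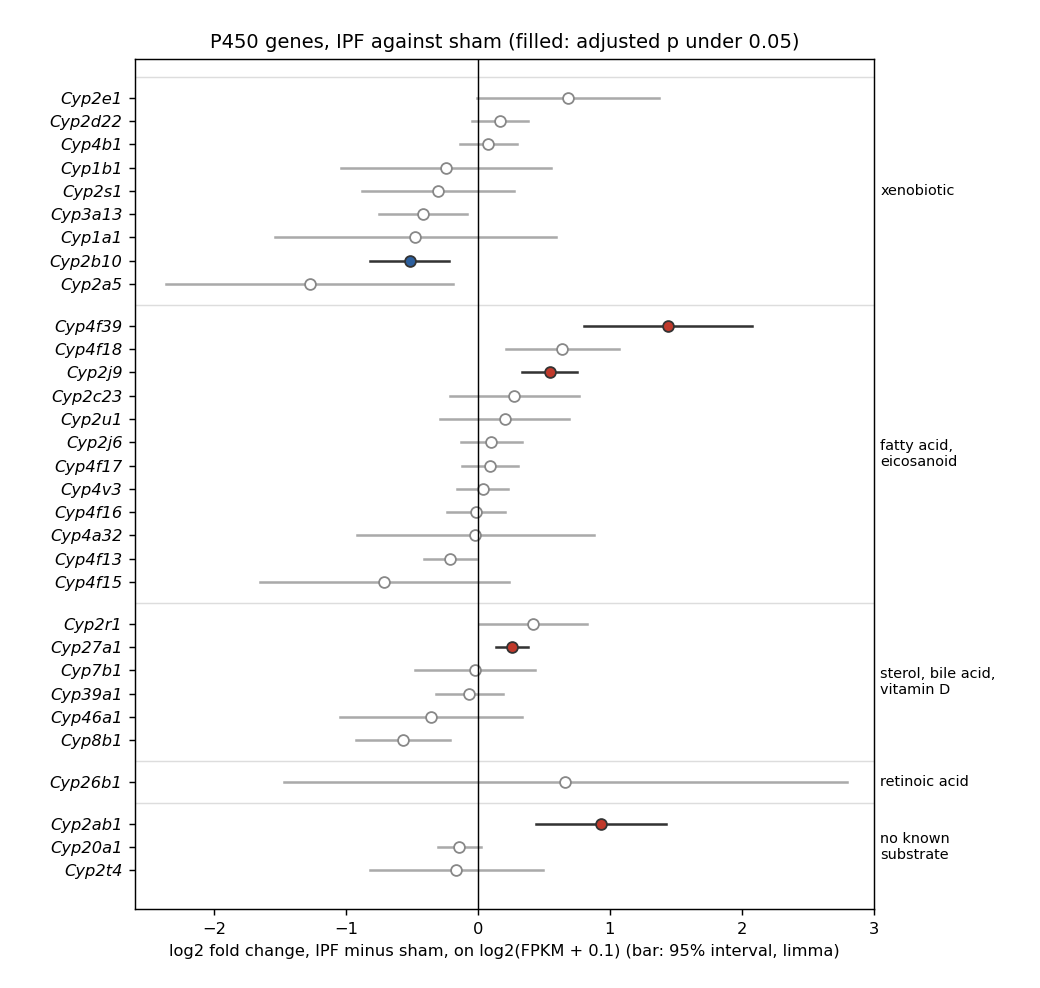
Log2 fold change of each cytochrome P450 gene, IPF minus sham, on the log2(FPKM + 0.1) scale, grouped by role; points are limma estimates, bars their 95% intervals, and filled points have an adjusted p under 0.05 (red higher in IPF, blue lower). Cyp4f39 at 1.44 is the largest of the 4 filled positive points, and Cyp2b10 at -0.52 is the only filled negative point.

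Among the 12 enzymes of fatty acids and eicosanoids, 2 rose (3.71% of all genes) and 0 fell (2.14% of all genes), with a median log2 fold change of 0.10. Cyp4f39, which hydroxylates very long chain fatty acids for skin ceramides, had 4.37, 3.53, 5.09, 3.02 and 2.16 FPKM in IPF replicates 1 to 5. Its sham values were 0.797, 1.60, 0.740, 1.99 and 1.39 FPKM, and the groups did not overlap. The means were 3.63 ± 1.15 and 1.31 ± 0.535 FPKM (SD, n = 5 per group), a 2.78-fold ratio resting on 61 to 154 and 19 to 53 reads. The log2 fold change was 1.44 (SE 0.29, limma adjusted p = 0.0150, exact permutation p = 0.00794, two-sided and the smallest that 5 against 5 allows). Leaving out any single sample kept it between 1.28 and 1.61 with an adjusted p of at most 0.0464, but without both IPF replicate 3 and sham replicate 1 it was 1.17 (limma adjusted p = 0.0797). Cyp4f39 is at chr17:32468462-32492479 on the plus strand of GRCm38.

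Cyp2j9, an arachidonic acid hydroxylase, was raised by a smaller but tighter margin. It measured 2.31, 2.23, 1.98, 2.58 and 2.24 FPKM in the IPF group and 1.60, 1.39, 1.59, 1.53 and 1.49 FPKM in the sham group. Every IPF sample was above every sham sample, and the spread within each group was small, with coefficients of variation of 9.48% and 5.63%. Its log2 fold change of 0.54 (SE 0.09) had a limma adjusted p of 0.00732 and passed under all 24 alternative settings and left-out samples. Cyp2j6, also on chromosome 4, measured 5.81 ± 0.580 and 5.43 ± 0.734 FPKM with a log2 fold change of 0.10 and a 95% interval from -0.13 to 0.33.

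The subfamily with the most members was Cyp4f, with 6 genes of which only Cyp4f39 passed (5.85% of all genes in either direction). Cyp4f18, which inactivates leukotriene B4 in neutrophils, measured 3.99, 3.56, 4.36, 3.64 and 5.61 FPKM in the IPF group. Sham samples had 1.701, 3.01, 3.53, 2.20 and 3.22 FPKM. All IPF samples were above all sham samples, but by a narrow margin between 3.56 and 3.53 FPKM, and the log2 fold change of 0.64 (SE 0.20) had a limma adjusted p of 0.0862. Cyp4f18 overlaps Zfp961 (3.86 FPKM) on the other strand, and whether reads were counted by strand is not given in the sources used here. Cyp4f13 had a log2 difference of -0.21 (adjusted p = 0.212 by limma) and Cyp4f15 of -0.71 (adjusted p = 0.401). Cyp4f16 and Cyp4f17 had -0.01 and 0.09. The remaining genes of this role, Cyp2c23, Cyp2u1, Cyp4v3 and Cyp4a32, had log2 fold changes between -0.02 and 0.28 and limma adjusted p of 0.547 or more. Cyp4f, Cyp2j and Cyp4a genes are close paralogs, so reads shared between copies leave the level of each of them uncertain.

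Of the 6 enzymes of sterols, bile acids and vitamin D, 1 rose and 0 fell, beside the same 3.71% and 2.14% of all genes. Cyp27a1, the mitochondrial sterol hydroxylase of the acidic bile acid pathway, measured 15.5, 15.3, 14.4, 15.8 and 14.5 FPKM in the IPF group. In the sham group it measured 12.8, 12.9, 12.6, 13.3 and 11.5 FPKM, again without overlap. The change was small, 15.1 ± 0.623 against 12.6 ± 0.657 FPKM, with a log2 fold change of 0.26 (SE 0.05, limma adjusted p = 0.0191). Without IPF replicate 4 the adjusted p was 0.0536. Cyp8b1, the sterol hydroxylase that sets the cholic acid share of bile acids, had 1.75, 1.75, 1.46, 2.00 and 1.54 FPKM in IPF and 3.33, 2.29, 3.29, 2.31 and 1.88 FPKM in sham samples. Its log2 fold change of -0.57 had a limma adjusted p of 0.0670, and 0.0338 without sham replicate 5, the lowest sham sample. Cyp2r1, a vitamin D hydroxylase, had 0.42 (adjusted p = 0.251). Cyp7b1, Cyp39a1 and Cyp46a1, which hydroxylate oxysterols and cholesterol, had -0.02, -0.07 and -0.36 with limma adjusted p of 0.588 or more.

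Among the 9 enzymes best known for foreign compounds, 0 rose (3.71% of all genes) and 1 fell (2.14%), and the median log2 fold change was -0.30. Cyp2b10 measured 105, 86.8, 99.6, 77.9 and 134 FPKM in the IPF group and 146, 142, 169, 126 and 129 FPKM in the sham group. Of the IPF samples, 4 of 5 were below every sham sample, and IPF replicate 5 was inside the sham range. The log2 fold change was -0.52 (SE 0.14, limma adjusted p = 0.0489, exact permutation p = 0.0238). This call was at the limit: in 9 of the 10 fits that left out a sample the adjusted p was between 0.0682 and 0.1205, and without IPF replicate 5 it was 0.00697. With the secretory airway level as a covariate it was 0.0665, and with the ciliated level 0.0846.

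The other genes of this role did not pass. Cyp3a13 had -0.42 on the log2 scale (adjusted p = 0.147 by limma), with 4 of 5 IPF samples below every sham sample. Cyp4b1 measured 228 ± 33.9 and 215 ± 12.1 FPKM, with a log2 fold change of 0.08 and a 95% interval from -0.14 to 0.29. Cyp2d22 and Cyp2e1, the ethanol-metabolising P450, had 0.17 (limma adjusted p = 0.382) and 0.68 (adjusted p = 0.260).

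In the last 4 of the 9 genes, Cyp1a1, Cyp1b1, Cyp2a5 and Cyp2s1, IPF replicate 3 stood far above the other IPF samples. Cyp1a1 measured 33.8, 46.3, 201, 43.2 and 21.7 FPKM in the IPF group and 55.2, 73.4, 110, 58.5 and 58.5 FPKM in the sham group. Thus 4 of 5 IPF samples were below every sham sample and the fifth above all of them, and its log2 fold change of -0.47 had a limma adjusted p of 0.642. Cyp1b1, which also answers to the aryl hydrocarbon receptor, had 3.39 FPKM in IPF replicate 3, 0.639 to 1.17 FPKM in the other IPF samples and 1.11 to 1.48 FPKM in sham samples. Cyp2s1 showed the same arrangement, at 7.64, 9.95, 23.8, 9.12 and 8.52 FPKM against 13.05, 13.4, 14.1, 15.7 and 10.6 FPKM. Cyp2a5, the coumarin hydroxylase, measured 0.170, 0.550, 2.78, 0.635 and 0.873 FPKM in IPF and 1.93, 1.96, 2.46, 2.11 and 1.17 FPKM in sham samples. When IPF replicate 3 was left out, the fold change of Cyp2s1 went on the log2 scale from -0.30 (limma adjusted p = 0.580) to -0.59 (adjusted p = 0.0180), and that of Cyp2a5 from -1.28 (adjusted p = 0.176) to -1.73 (adjusted p = 0.0208). Cyp1a1 went to -0.98 (limma adjusted p = 0.0547) and Cyp1b1 from -0.24 (adjusted p = 0.765) to -0.63 (adjusted p = 0.0653) in the same fit. In the other 9 fits that left out a sample, neither Cyp2s1 nor Cyp2a5 passed. Without IPF replicate 1, Cyp2s1 had -0.18 (limma adjusted p = 0.776). With the secretory level as a covariate Cyp2s1 had -0.18 (limma adjusted p = 0.286), and with the ciliated level -0.006 (adjusted p = 0.975). Cyp2a5 is nearly identical to Cyp2a4, which had 1 read in a single sample, so the assignment of their reads is uncertain.

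The role without a known substrate held Cyp20a1, Cyp2ab1 and Cyp2t4. Cyp2ab1 measured 0.617, 0.515, 0.454, 0.611 and 0.503 FPKM in the IPF group and 0.347, 0.266, 0.277, 0.115 and 0.209 FPKM in the sham group, without overlap. These levels rest on 27 to 35 reads per IPF sample and 6 to 18 per sham sample. The log2 fold change was 0.94 (SE 0.22, limma adjusted p = 0.0327), and the adjusted p was between 0.0548 and 0.0830 in 6 of the 10 fits that left out a sample, those without IPF replicate 1, 2 or 4 or sham replicate 2, 3 or 5. It was 0.0649 with the ciliated level as a covariate and 0.0694 with no filter on low values. Cyp20a1 had -0.14 (adjusted p = 0.334, and 0.0476 without sham replicate 1). Cyp2t4 had -0.16 (limma adjusted p = 0.818) and overlaps Egln2 on the opposite strand, which was far more abundant at 28.2 FPKM.

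**Figure D3:**
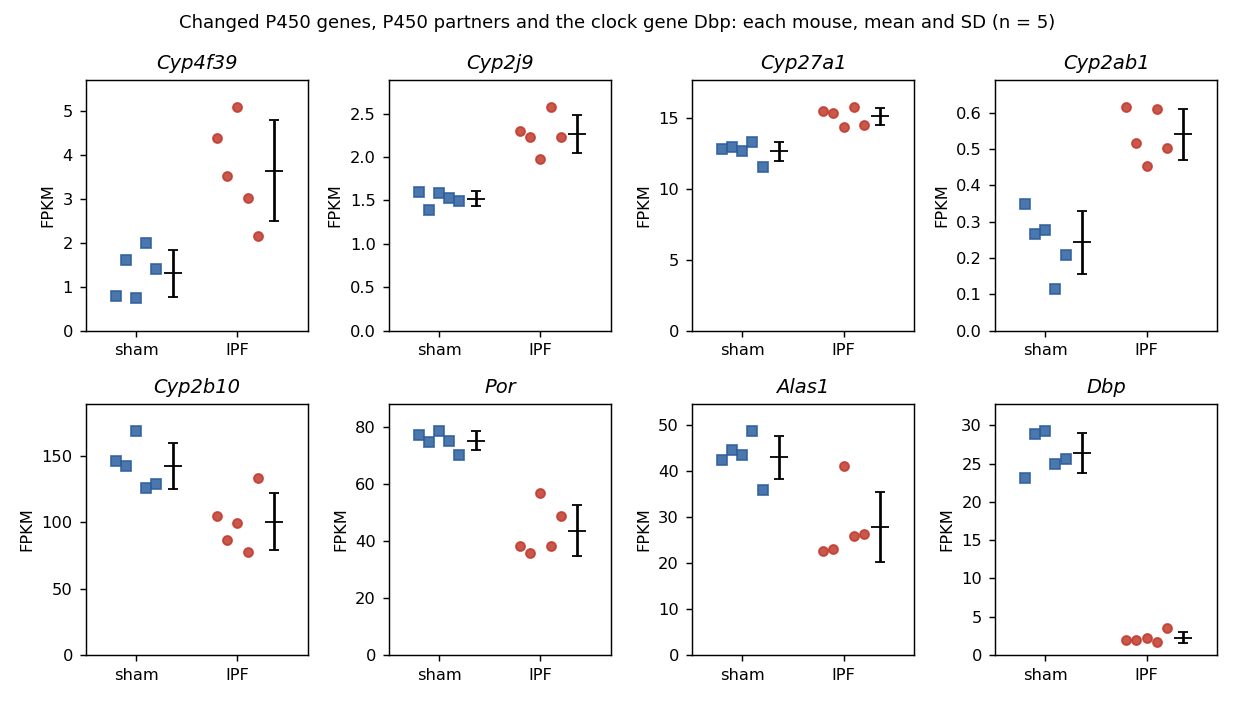
FPKM of the 5 P450 genes with an adjusted p under 0.05, of the P450 partners Por and Alas1 and of the clock gene Dbp in each mouse (squares sham, circles IPF; bars are mean and SD, n = 5 per group). Cyp4f39, Cyp2j9, Cyp27a1 and Cyp2ab1 lie higher in all 5 IPF mice, Por and Dbp lie lower in all 5, and for Cyp2b10 and Alas1 a single IPF mouse lies within the sham range.

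Cyp26b1, which breaks down retinoic acid, had the largest coefficient of variation in the sham group among the 10 most abundant members, 86.6%. It measured 4.02, 27.6, 30.1, 4.03 and 3.09 FPKM in the IPF group and 16.7, 10.1, 18.0, 1.05 and 1.18 FPKM in the sham group. High and low samples occurred in both groups, and the log2 fold change of 0.66 had a 95% interval from -1.47 to 2.80. Dhrs3, which turns retinaldehyde back to retinol, was set beside it after the values were seen. Dhrs3 measured 39.9, 41.6, 43.9, 35.98 and 32.4 FPKM in the IPF group and 29.9, 31.1, 33.6, 27.3 and 24.7 FPKM in the sham group, with a log2 difference of 0.40 (IPF higher, adjusted p = 0.0394 by limma). The 2 IPF samples and the 3 sham samples with the highest Cyp26b1 were also those with the highest Dhrs3 of their group. No correlation is given because the Cyp26b1 values fall into separate clusters. Of 12 retinoid genes tested outside the P450 family, Dhrs3 was the only gene that passed (5.85% of all genes).

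**Figure D4:**
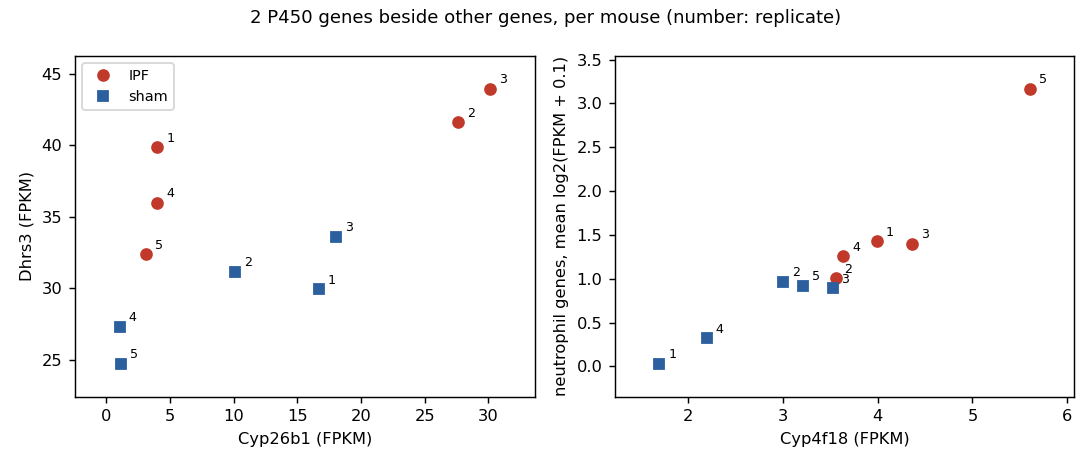
Left, Dhrs3 against Cyp26b1 in FPKM per mouse; right, the mean log2(FPKM + 0.1) of 10 neutrophil genes against Cyp4f18 in FPKM per mouse (circles IPF, squares sham, with the replicate number). Cyp26b1 was 27.6 and 30.1 FPKM in 2 IPF mice and 1.05 and 1.18 FPKM in 2 sham mice, and IPF replicate 5 holds the highest Cyp4f18, 5.61 FPKM, and the highest neutrophil level, 3.17.

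The electron donor shared by most P450 enzymes was lower in IPF lungs. Of 12 genes for redox partners and heme supply, 2 fell (2.14% of all genes) and 0 rose (3.71% of all genes), with a median log2 fold change of 0.05. Por measured 38.4, 35.96, 57.0, 38.5 and 48.9 FPKM in the IPF group and 77.5, 74.97, 78.7, 75.3 and 70.1 FPKM in the sham group. All IPF samples were below all sham samples, with a log2 fold change of -0.80 (SE 0.12, limma adjusted p = 0.00299). Alas1, the rate-limiting enzyme of heme synthesis, measured 22.6, 23.0, 40.9, 25.8 and 26.3 FPKM in IPF and 42.4, 44.4, 43.5, 48.6 and 35.7 FPKM in sham samples. Its log2 fold change was -0.66 (SE 0.15, limma adjusted p = 0.0257), and IPF replicate 3 alone was inside the sham range. In both genes replicate 3 had the highest IPF value.

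Among the 15 tested receptors that regulate P450 genes, 2 rose and 0 fell, with a median log2 fold change of 0.14. Over all genes tested, for this list and those that follow, 3.71% rose and 2.14% fell. Ahr, the aryl hydrocarbon receptor, measured 29.5 ± 2.71 and 23.0 ± 2.93 FPKM, with a log2 difference of 0.37 (adjusted p = 0.0401 by limma). Rxrg, a retinoid X receptor, was low throughout, at 0.246 to 0.737 FPKM in the IPF group and 0.0523 to 0.244 FPKM in the sham group, differing by 1.55 on the log2 scale (adjusted p = 0.0198). In the battery of aryl hydrocarbon receptor targets outside the family, 0 of 5 tested genes passed in either direction and the median was -0.02. Of 25 phase 2 and other oxidation genes 1 fell, Fmo4, a flavin monooxygenase, with a log2 fold change of -0.89 (adjusted p = 0.0095 by limma), and 0 rose. Of 16 arachidonate enzymes outside the family 1 rose, Lta4h, the leukotriene A4 hydrolase, with a log2 fold change of 0.26 (adjusted p = 0.0218), and 0 fell.

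The clock genes were set beside these values per sample. All 5 clock activators rose and 12 of 13 clock repressors and PAR bZIP genes fell. Arntl, the core activator, lay between 3.31 and 6.85 FPKM in the IPF group and between 0.311 and 0.452 FPKM in the sham group, and Nr1d1, a repressor, between 1.03 and 4.28 and between 31.03 and 42.6 FPKM. Within the IPF group, replicate 5 had the lowest Arntl and the highest Dbp (3.49 FPKM) and Nr1d1, and of the 5 changed P450 genes it also had the highest Cyp2b10 and the lowest Cyp4f39. The other 3 did not take an extreme value there: Cyp2j9 was in the middle of the IPF samples, and Cyp27a1 and Cyp2ab1 were second lowest, toward the sham values. The lowest IPF values of Cyp2j9, Cyp27a1 and Cyp2ab1 were in replicate 3. For Por, replicate 5 was the second highest IPF sample. Members that did not pass between the groups were also highest there, such as Cyp4b1 and Cyp2d22. Cyp4b1 had 284 FPKM in replicate 5 and 199 to 230 FPKM in the other IPF samples, and Cyp2d22 had 19.4 against 13.6 to 14.8 FPKM. These genes were picked for comparison after their values were seen, and the part of the clock in these values was not tested.

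The sex-linked difference was set beside chosen lists of P450 genes that differ between the sexes in mouse liver. Of 13 female-biased genes, Cyp39a1 alone passed the limit, with a log2 fold change of -0.07, and 7 were at 0 in every sample. Of 7 male-biased genes, 4 were tested, Cyp2u1, Cyp7b1, Cyp8b1 and Cyp2f2, with log2 fold changes of 0.20, -0.02, -0.57 and -0.43. In both lists 0 genes passed with limma. None of the 5 P450 genes that changed is in either list. Both lists are selections of liver genes, so this absence cannot decide whether these genes differ between the sexes in the lung. Such a difference was not tested.

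The relation to airway content was measured within the groups, on log2 values centred on the group mean, so that the difference between groups did not enter. The 5 changed P450 genes showed no relation that passed to the secretory airway level. Pearson's r was 0.36 for Cyp4f39 (exact permutation p = 0.309, Spearman's rho 0.33, p = 0.365) and -0.02 for Cyp2b10 (exact p = 0.971, rho 0.03, p = 0.954). It was -0.17 for Cyp27a1 (exact permutation p = 0.687, rho 0.03, p = 0.945) and -0.57 for Cyp2j9 (exact p = 0.214, rho -0.31, p = 0.417). For Cyp2ab1 it was -0.44 (exact permutation p = 0.0451, and 0.226 adjusted over the 5 genes; rho -0.42, p = 0.234). Without IPF replicates 1 and 3, the 2 samples farthest from the median airway level, r was 0.37, 0.02, 0.69, -0.02 and -0.50 for Cyp4f39, Cyp2b10, Cyp27a1, Cyp2j9 and Cyp2ab1.

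The relation was extended to all 31 genes after the values were seen, and there 3 genes passed with Benjamini-Hochberg adjustment over 31. Cyp2s1 had r = 0.96 (exact permutation p = 0.00236, adjusted p = 0.0251), but its Spearman's rho of 0.83 had an adjusted p of 0.0718. Cyp2a5 had r = 0.94 (exact permutation p = 0.00243, adjusted p = 0.0251; rho 0.89, adjusted p = 0.0205). Cyp4f15 had r = 0.90 (exact permutation p = 0.00118, adjusted p = 0.0251; rho 0.90, adjusted p = 0.0205). Without IPF replicates 1 and 3, r was 0.73, 0.66 and 0.77 for Cyp2s1, Cyp2a5 and Cyp4f15, and without IPF replicate 3 alone it was 0.79, 0.83 and 0.81. These reduced sets were not tested. For Cyp1a1 and Cyp1b1, the r of 0.78 and 0.90 had an adjusted exact permutation p of 0.398 and 0.180 and went to -0.05 and 0.46 without IPF replicates 1 and 3. Without IPF replicate 3 alone r was -0.0093 and 0.45, so the relation of Cyp1a1 rested on that sample. With the ciliated list, Cyp2s1 passed (r = 0.98, exact permutation p = 0.000694, adjusted p = 0.0215; rho 0.93, adjusted p = 0.0301), with r = 0.93 without IPF replicates 1 and 3. The club cell gene Scgb1a1 itself measured 3285, 4792, 25938, 4328 and 12863 FPKM in the IPF group and 14072, 18825, 16858, 22154 and 11078 FPKM in the sham group. In bulk tissue, fewer airway cells and less RNA per airway cell cannot be told apart. Of 14 secretory and 14 ciliated markers 0 passed between the groups, with median log2 fold changes of -0.10 and -0.37, and with the secretory level as a covariate Cyp2a5 had a log2 difference of -1.06 (adjusted p = 0.0148 by limma). With the ciliated level as a covariate it was -0.79 (adjusted p = 0.162).

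**Figure D5:**
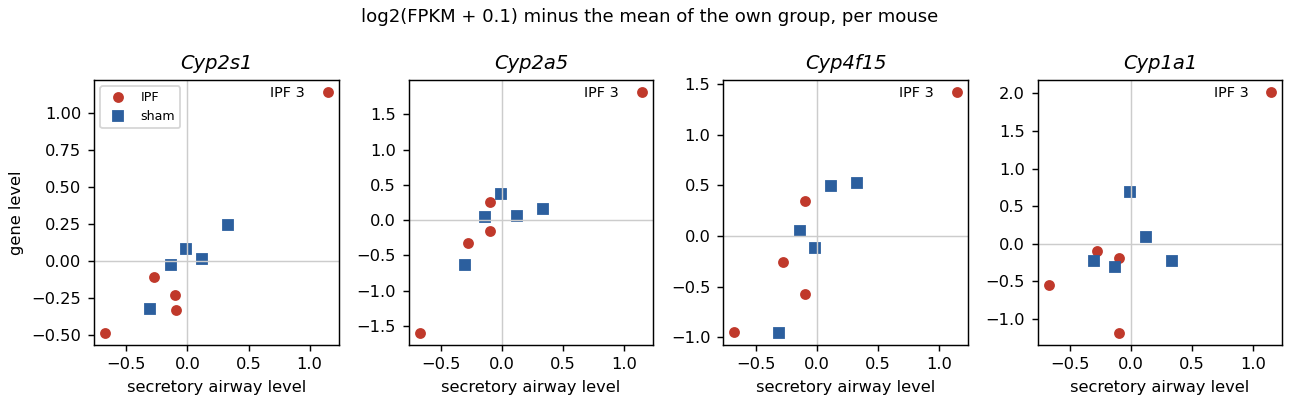
Level of Cyp2s1, Cyp2a5, Cyp4f15 and Cyp1a1 against the mean of 14 secretory airway markers in each mouse, both as log2(FPKM + 0.1) minus the mean of the own group (circles IPF, squares sham). IPF replicate 3 is at the upper right of all 4 panels; r without IPF replicates 1 and 3 was 0.73, 0.66 and 0.77 for the first 3 genes and -0.05 for Cyp1a1.

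Neutrophil genes were added as a further list after the values of Cyp4f18 were seen, so the relation is not independent of that choice. The 10 genes had log2 fold changes between 0.53 and 1.83 with a median of 0.93, and 0 passed between the groups with limma (6 higher at an unadjusted p under 0.05, beside 11.2% of all genes). Their mean log2 level was 1.43, 1.01, 1.403, 1.26 and 3.17 in IPF replicates 1 to 5 and 0.03, 0.97, 0.89, 0.32 and 0.92 in sham replicates 1 to 5. Within groups, Cyp4f18 had r = 0.81 with this level (exact permutation p = 0.00132, adjusted over 31 genes 0.0409; rho 0.88, p = 0.00306, adjusted 0.0947). Without IPF replicate 5 and sham replicate 1, r was 0.88. The part of neutrophil content in the Cyp4f18 values was not tested.

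Cyp2f2 and Cyp51, which were set aside, did not pass either. Cyp2f2, the naphthalene-activating P450 of club cells, measured 164, 226, 801, 202 and 258 FPKM in the IPF group and 357, 401, 391.97, 475 and 254 FPKM in the sham group, with the same high value in IPF replicate 3 (log2 fold change -0.43, limma adjusted p = 0.579). Cyp51, the lanosterol demethylase of cholesterol synthesis, had a log2 difference of 0.48 (adjusted p = 0.0772 by limma).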

How the data were processed

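Whole-lung mRNA of 5 IPF and 5 sham mice was measured at P30, grouped by the sample labels. For 54532 genes the authors deposited 1 FPKM value in each sample. The methods name Fastp (trimming), HISAT2 (alignment) and StringTie (quantification), and which tool made the deposited values was not checked. As genome the methods give GRCm39, whereas the submitters' processing notes name GRCm38, mm10, hg38 and Bowtie 0.12.2, and gene positions match GRCm38 (on chromosome 1 the last gene ends at 195323493). The methods name the KAPA mRNA HyperPrep kit and the labels NEBNext Ultra. The reads behind each value were recovered, because FPKM times gene length came in whole steps (tolerance 0.01). Intervals cover the spread between samples only.

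The test was limma 3.58.1 (R 4.3.3) on log2(FPKM + 0.1) for genes with a mean of at least 0.1 FPKM, with trended variances, no covariate and Benjamini-Hochberg adjustment over 20448 genes. The pseudocount understates changes of low genes. A gene passed at an adjusted p under 0.05, and also, where stated, an absolute log2 fold change above 1. The count model of the study (DESeq2) was not used, and voom on the recovered reads was the alternative based on reads. Exact permutation tests took all 252 assignments of the samples, or for relations all 14400 orders within groups, two-sided, in Python 3.11.15 with scipy 1.17.1. Named were the members with an adjusted p under 0.05, the 10 most abundant members, the genes next to the limit, up to 3 passing genes per related list and the tested members of the liver lists; other members are described by values and were chosen after these were seen. The fit was tested on simulated data, where recovery was judged on genes of at least 1 FPKM, a criterion set after a first run in which lower genes were recovered less often. Alternatives were other pseudocounts (1 and 0.01), other filters (none, or a mean of at least 1 FPKM), 2 other scalings, voom on the recovered reads, array weights, no variance trend, protein-coding genes alone, the airway levels as covariates, the replicate number as a block and leaving out each sample. A fit without IPF replicate 3 and sham replicate 1, the extension of the airway relation to all members, and the neutrophil list were chosen after seeing the data. The members and all gene lists were chosen with earlier results of these data known. The numbers shared by both groups did not pair the samples (correlations of deviations from -0.0204 to 0.0953). Enrichment tests were not run.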

Additional observations from a re-analysis of the deposited data

Results flagged for a closer look

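In groups of 5 mice, a sample was singled out where its gap to the nearest other sample exceeded 0.71 of the whole range of its group. This happened in 9 of 62 groups, where chance gives about 1 in 20 for independent, normally distributed values. The 62 groups share 10 libraries and were measured in FPKM, so that rate is only a guide. IPF replicate 3 accounted for 4 of them, all highest values: Cyp1a1 at 201.1 FPKM (next 46.3), Cyp2s1 at 23.79 FPKM (next 9.95), Cyp1b1 at 3.393 FPKM (next 1.166) and Cyp2a5 at 2.781 FPKM (next 0.8725). This sample also had the highest secretory and ciliated airway levels, 5.78 and 4.02 as mean log2(FPKM + 0.1). Its level of aryl hydrocarbon receptor targets outside the family was the highest too, 3.04 against 1.80 to 2.47 in the other samples. So was that of the phase 2 and other oxidation genes, 4.65 against 3.79 to 4.35. The part of any of these levels in the 4 values was not tested. Sham replicate 1 accounted for 3: the lowest Cyp20a1 of its group at 15.29 FPKM (next 18.69), and the highest Cyp4f17 at 3.583 FPKM (next 2.869) and Cyp2u1 at 0.5787 FPKM (next 0.3628). Cyp2d22 in IPF replicate 5 stood at 19.36 FPKM (next 14.82) and Cyp2e1 in sham replicate 4 at 3.367 FPKM (next 1.914).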

How the results depend on the processing

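The count of P450 genes higher in IPF past both limits, 1 with the settings of the report, was 2 with array weights, a pseudocount of 0.01 or voom, 0 with the replicate block, and 1 to 2 when a sample was left out. The count lower past both limits, 0, was 1 with the secretory airway level as a covariate and 0 to 1 when a sample was left out. At an adjusted p under 0.05 alone, the 4 higher genes became 2 with the replicate block, 3 with the ciliated level as a covariate, no filter or a mean of at least 1 FPKM, where Cyp2ab1 did not pass or was not tested, and 2 to 4 when a sample was left out. The count of lower genes, 1, became 0 with the ciliated level as a covariate, no filter, no variance trend, a pseudocount of 1 or 0.01, or the replicate block, 2 with protein-coding genes alone (Cyp2b10 and Cyp8b1), and 0 to 2 when a sample was left out. With the secretory level as a covariate the 1 lower gene was Cyp2a5, and Cyp2b10 had an adjusted p of 0.0665. Without IPF replicate 3 the 2 were Cyp2a5 and Cyp2s1, without sham replicate 1 the 1 was Cyp20a1, and without sham replicate 5 it was Cyp8b1. Shared replicate numbers did not pair the samples. With the replicate block, which leaves the fold changes as they are, Cyp27a1 and Cyp2j9 passed, and Cyp4f39 had a limma adjusted p of 0.0600. Without IPF replicate 3 and sham replicate 1, chosen after seeing the data, Cyp4f39 had 1.17 (adjusted p = 0.0797). Over 24 alternatives the adjusted p of Cyp4f39 ran from 0.00722 to 0.0797, that of Cyp2j9 from 0.00289 to 0.0329, that of Cyp27a1 from 0.00838 to 0.0536 and that of Cyp2b10 from 0.00697 to 0.148, and over the 23 of Cyp2ab1 from 0.0137 to 0.0830.

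The sign turned for some genes that had not passed. Cyp4v3 went to -0.0071 with array weights and ran from -0.0187 (without IPF replicate 3 and sham replicate 1) to 0.0916 when samples were left out. Cyp1a1, Cyp1b1 and Cyp7b1 went from -0.47, -0.24 and -0.02 to 0.000472, 0.114 and 0.0726 with the ciliated level as a covariate. Cyp7b1 went to 0.0126 with the secretory level and ran from -0.147 to 0.1199, and Cyp4b1 from -0.0051 to 0.122, when samples were left out. The r of Cyp2b10 with airway content was 0.0745 with the ciliated list and 0.0243 without IPF replicates 1 and 3, and that of Cyp27a1 was 0.692 without them. The cause of these shifts was not tested. With the other scalings the median log2 fold change of all genes was -0.0043 and -0.0097. Genes under 1 FPKM rest on few reads, 6 to 18 for Cyp2ab1 in sham samples, which limits what could be detected there.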
